A study of Mus musculus with 106 samples.

Results

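Nos2, the gene for inducible nitric oxide synthase, was read with 20 kb on either side of it in every deposited list of H3K27ac and H3K4me3 peaks from mouse bone marrow cells. It is 1 of 21938 protein-coding genes, and it was chosen by its H3K27ac ranks in macrophages from diabetic mice: a region upstream of it stood among the strongest peaks of every stimulated list and of no unstimulated one. What the H3K27ac lists of diabetic macrophages hold there is therefore given as a description, with no test. The ranks that decided the choice lay between 2097 and 7015 in stimulated lists and between 10385 and 31536 in unstimulated lists, where rank 1 is the strongest peak of a list and the limit was rank 10000. The list just inside the limit was thus at 7015 and the nearest one outside it at 10385.

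Inducible nitric oxide synthase makes nitric oxide from arginine in activated macrophages, where it serves the killing of microbes. In resting macrophages the gene is nearly silent. Lipopolysaccharide (LPS), a component of the bacterial wall, acts through the receptor TLR4 and the factor NF-κB, and interferon gamma (IFN-γ) acts through its own receptor and IRF1, and both signals meet at Nos2. Acetylation of histone H3 at lysine 27 (H3K27ac) sits on enhancers and promoters in use, and methylation at lysine 4 (H3K4me3) sits on promoters.

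The mice were C57BL/6J, 12 to 14 weeks old, and formed a control group and a group given streptozotocin, a toxin of insulin-producing cells, at 42 to 45 mg per kg on each of 5 days. Tissue came from diabetic animals whose non-fasted glucose exceeded 13.9 mmol/L, 6 weeks after the last dose. Cells called HSC were bone marrow freed of cells bearing CD3, CD4, B220, Ter119 or Gr1, a mixture of stem cells and progenitors. Bone marrow-derived macrophages (BMDM) were grown for 7 days in 5 mmol/L glucose with 20% L929 cell medium, after which they spent 16 h in medium alone (unstimulated) or with LPS at 100 ng/mL and IFN-γ at 10 ng/mL, so that cells of diabetic origin had also been in normal glucose for a week. Each mark was read in 35 lists: 6 lists in each of 10 groups and 5 in the 2 groups of unstimulated BMDM from diabetic mice. Lists held 51162 to 176559 peaks for H3K27ac and 13730 to 277213 for H3K4me3, and because no read totals were used the depth of a library is unknown, so values are ranks within a list. Among the top 10000 H3K27ac peaks, 0 of 7 macrophage markers had a promoter peak in each HSC list against 0 to 3 in a BMDM list, with Adgre1, Fcgr1, Itgam and Lyz2 in no list of either kind, and stem and progenitor markers numbered 1 to 5 of 7 in HSC lists and 0 to 1 in BMDM lists. Of 8 markers of other marrow cells, only Klf1, an erythroid factor, was found, in all HSC lists and nearly all BMDM lists.

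Some control BMDM lists went against their labels. Outside the Nos2 window, 25 H3K27ac regions lay in the top 10000 of every stimulated and no unstimulated diabetic list, and 27 did the reverse. Stimulated control list 5 held 5 of the 25 and 25 of the 27, while unstimulated control list 5 held 17 of the 25 and 5 of the 27, and unstimulated control list 6 held 16 of the 25 and 1 of the 27. Labels were kept, and results on stimulation in control BMDM are given with and without these 3 lists and, for H3K4me3, without the lists of the same labels.

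The gene lies on the plus strand of chromosome 11 in GRCm38, at chr11:78920787-78960254 (ENSMUSG00000020826.8). GENCODE gives it 3 transcripts with a start each: that of the longest is called the first start here, and the others lie 3953 and 4416 bp downstream of it, inside intron 2 of the longest transcript. The only other gene in the window is Lgals9, for the lectin galectin-9, which runs on the opposite strand from chr11:78962974-78984946 and starts outside the window. The upstream region of H3K27ac was chr11:78916691-78918905, 1882 bp before the first start at its near end, and it was among the top 10000 peaks in 13 of 35 lists. Summits of the lists fell into 21 sites, 6 of them upstream, 5 within 10 kb after the first start and 10 between 23 and 36 kb, over introns and exons from intron 11 to intron 25. A site is named here by the distance of its summit from the first start.

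The 3 stretches below are the 300 bases around upstream H3K27ac summits, from the RefSeq copy of GRCm38, plus strand, 5′ to 3′. They are shown because they carry the acetylation described next: the −3.6 kb site is the summit of the upstream region at chr11:78917079-78917378, the −4.6 kb site is its neighbour at chr11:78916003-78916302, and the −7.7 kb site at chr11:78912912-78913211 was mostly held by stimulated lists. Capitals mark matches to 6 motifs searched on both strands.
−3.6 kb: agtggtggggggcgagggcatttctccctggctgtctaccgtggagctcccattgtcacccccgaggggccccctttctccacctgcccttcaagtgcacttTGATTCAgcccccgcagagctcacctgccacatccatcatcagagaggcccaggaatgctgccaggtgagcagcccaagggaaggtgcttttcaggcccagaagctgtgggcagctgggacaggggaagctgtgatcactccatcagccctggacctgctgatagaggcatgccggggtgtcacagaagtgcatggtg
−4.6 kb: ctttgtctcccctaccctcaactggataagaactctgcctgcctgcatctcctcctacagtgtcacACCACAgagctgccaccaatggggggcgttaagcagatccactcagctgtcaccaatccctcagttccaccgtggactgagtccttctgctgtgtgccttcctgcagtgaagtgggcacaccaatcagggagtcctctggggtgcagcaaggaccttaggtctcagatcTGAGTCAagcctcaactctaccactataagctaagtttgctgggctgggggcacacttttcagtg
−7.7 kb: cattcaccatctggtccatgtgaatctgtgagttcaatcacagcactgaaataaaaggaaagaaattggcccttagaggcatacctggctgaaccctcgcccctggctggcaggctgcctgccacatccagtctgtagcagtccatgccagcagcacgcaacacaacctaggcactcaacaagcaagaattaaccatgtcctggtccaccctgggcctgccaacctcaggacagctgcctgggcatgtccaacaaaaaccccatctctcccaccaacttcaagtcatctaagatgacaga
The motifs were those of NF-κB (GGGANTTTC), ISRE, the element bound by interferon regulatory factors (GAAANNGAA), PU.1 (GAGGAA), Runx (TGTGGT), C/EBP (TTGCNNAA) and AP-1 (TGANTCA). The −3.6 kb stretch held 1 match, to AP-1. The −4.6 kb stretch held an AP-1 match and a Runx match on the minus strand, with no overlap between them, and the −7.7 kb stretch held none of the 6. Among 300-base stretches at the strongest summit of all 16414 H3K27ac regions, AP-1 was found in 4.32%, Runx in 12.9%, PU.1 in 22.9%, C/EBP in 4.94%, ISRE in 3.79% and NF-κB in 0.682%. GC content was 73.7% at the +4.5 kb site and 47.7% to 61.3% at the other sites.

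**Figure D1:**
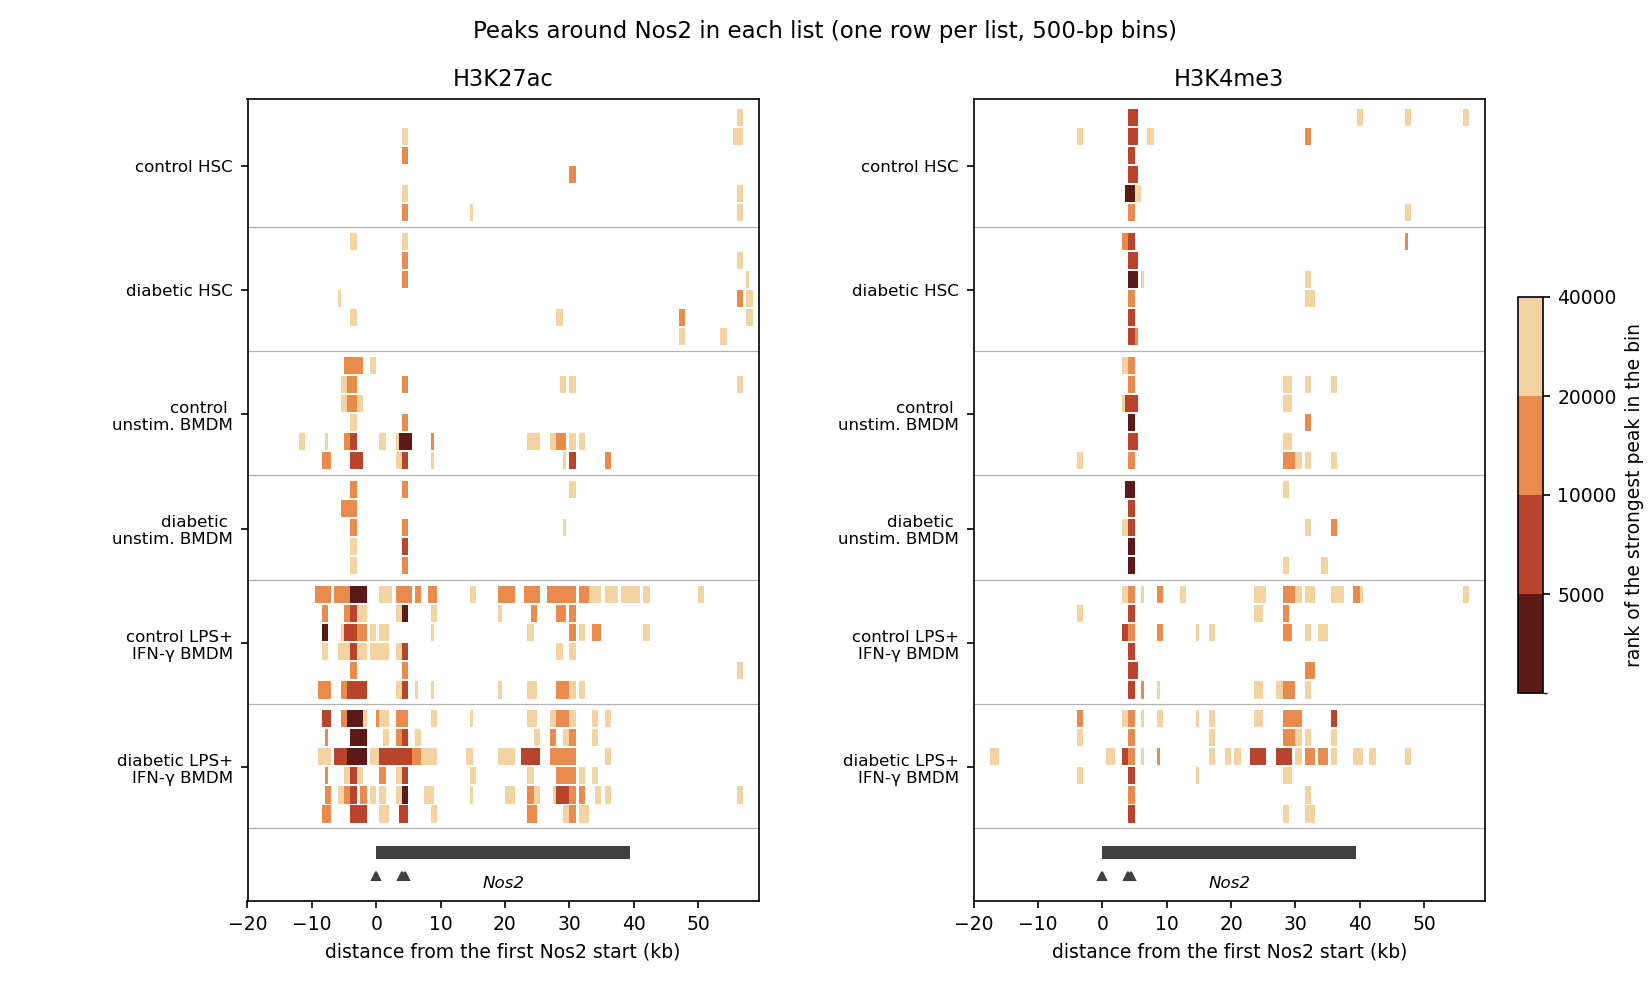
Peaks around Nos2. Each row is 1 list, the horizontal axis is the distance from the first start in kb, and colour gives the rank of the strongest peak that touches a 500-bp bin, out to rank 40000. Triangles mark the 3 starts. H3K27ac upstream of the gene was sparse in HSC and denser in BMDM, where stimulated and unstimulated control lists overlapped. H3K4me3 sat at +4.5 kb in every list.

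The 2 marks took different places. H3K4me3 sat at the +4.5 kb site, over the later starts, in 35 of 35 lists among the top 40000, HSC included. In HSC that peak ranked 1568 to 14750 in control lists (median 9179) and 1382 to 11642 in diabetic lists (median 6574), about where it ranked in unstimulated BMDM, at 4047 to 14046 (median 8899) and 2038 to 9622 (median 4053). H3K4me3 at the first start was in the top 40000 of 1 list, a stimulated diabetic one. H3K27ac at the first start was in the top 40000 of 0 of 12 HSC lists, 2 of 6 control and 0 of 5 diabetic unstimulated BMDM lists, and 3 of 6 control and 5 of 6 diabetic stimulated BMDM lists. The strongest H3K4me3 peak of the whole window was at +4.5 kb in each of the 12 HSC and 11 unstimulated BMDM lists, and elsewhere in the gene in 2 of 6 control and 3 of 6 diabetic stimulated lists. The strongest H3K27ac peak was at −3.6 kb or +4.5 kb in 22 of 23 BMDM lists, the exception being stimulated control list 3, where it was at −7.7 kb with rank 4458. In HSC the strongest H3K27ac peak was at +4.5 kb in 3 control and 3 diabetic lists and downstream, over Lgals9, in 2 control and 3 diabetic lists.

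In control mice the upstream region ranked higher in the H3K27ac lists of macrophages than in those of HSC. H3K27ac ranks there in unstimulated control BMDM were 10573, 10899, 10395, 20095, 7966 and 6350 in lists 1 to 6. In control HSC they were 41715 in list 1, 127328 in list 2, 41051 in list 4 and 99367 in list 5, and lists 3 and 6 had no peak. Each BMDM list was stronger than each HSC list. A list with no peak was given its length plus 1, which made the geometric mean rank 10300 in BMDM and 85300 in HSC, a ratio of 8.25. On the log2 scale the difference in rank was −3.05 (13.3 ± 0.56 against 16.4 ± 0.82, SD, n = 6 and 6). Over the 16414 regions it passed the test (exact permutation, two-sided, p = 0.00216, which is the smallest possible, adjusted p = 0.0155). The region had entered that set only through BMDM, however: its 13 lists in the top 10000 were 5 stimulated and 2 unstimulated control and 6 stimulated diabetic BMDM lists, and 0 of 12 HSC lists, so a difference of this direction was favoured. Another reading took the interval from 5 kb to 1 kb before each gene, placed alike for all genes. The difference was then −2.73 (13.3 ± 0.56 against 16.1 ± 0.62, n = 6 and 6) with the same exact permutation p of 0.00216 but an adjusted p of 0.109. That interval was chosen after seeing the data and contains the upstream region, and the BMDM mean and SD were the same in both readings. It is therefore no independent check of the difference. By that reading 0 of 21938 genes passed and 10.2% had an unadjusted p below 0.05, and 9498 intervals held no peak in any of the 12 lists. In these bulk samples a mark carried by fewer cells cannot be told apart from less of the mark in each cell. Of all 16414 regions 27.7% passed the test and 7.96% were stronger in every BMDM list than in every HSC list. Fold enrichment at the summit, as deposited, was 4.34 to 10.6 in these BMDM lists and 2.08 to 4.16 in the 4 HSC lists with a peak. Unstimulated control lists 5 and 6, whose placement went against their label, were the strongest of the BMDM lists, and the other 4 BMDM lists also ranked above each HSC list.

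In diabetic HSC the region was held at ranks 25063, 86869, 70832, 52146 and 35880 in lists 1 to 5 and not in list 6. In diabetic mice unstimulated BMDM and HSC differed by −1.68 in log2 rank (geometric means 15500 and 49500, n = 5 and 6). There the 2 cell types overlapped, with BMDM list 5 at 31536 and HSC list 1 at 25063. No test was made, since the diabetic BMDM lists chose the gene. The diabetic and control HSC lists overlapped (log2 rank 15.6 ± 0.65 against 16.4 ± 0.82, difference −0.78, exact permutation p = 0.104, adjusted p = 1.00, n = 6 and 6), and 0 of 16414 regions passed in that comparison, while 4.64% had an unadjusted p below 0.05. H3K4me3 was sparse at the same place, in 1 of 6 control HSC lists, 4 of 6 unstimulated and 4 of 6 stimulated control BMDM lists at any rank, and in 2 of 6, 2 of 5 and 5 of 6 of the diabetic lists. In the remaining 17 of the 35 lists the value is a list length rather than a peak, and H3K4me3 lists were shorter in control HSC (median 49624 peaks) than in unstimulated control BMDM (median 161118). The log2 rank of H3K4me3 at the region was higher, that is further down the list, in control BMDM than in HSC, by 0.90 (exact permutation p = 0.0844, adjusted p = 0.266, with 0 regions passing and 23.9% below 0.05 unadjusted), and as a share of the list it was lower by 0.54. In diabetic mice the difference was 0.79 (exact permutation p = 0.113, adjusted p = 0.391, 0 regions passing and 17.4% below 0.05 unadjusted), and between diabetic and control HSC it was −0.10 (exact permutation p = 0.866, adjusted p = 1.00, 0 passing and 4.12% below 0.05 unadjusted).

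**Figure D2:**
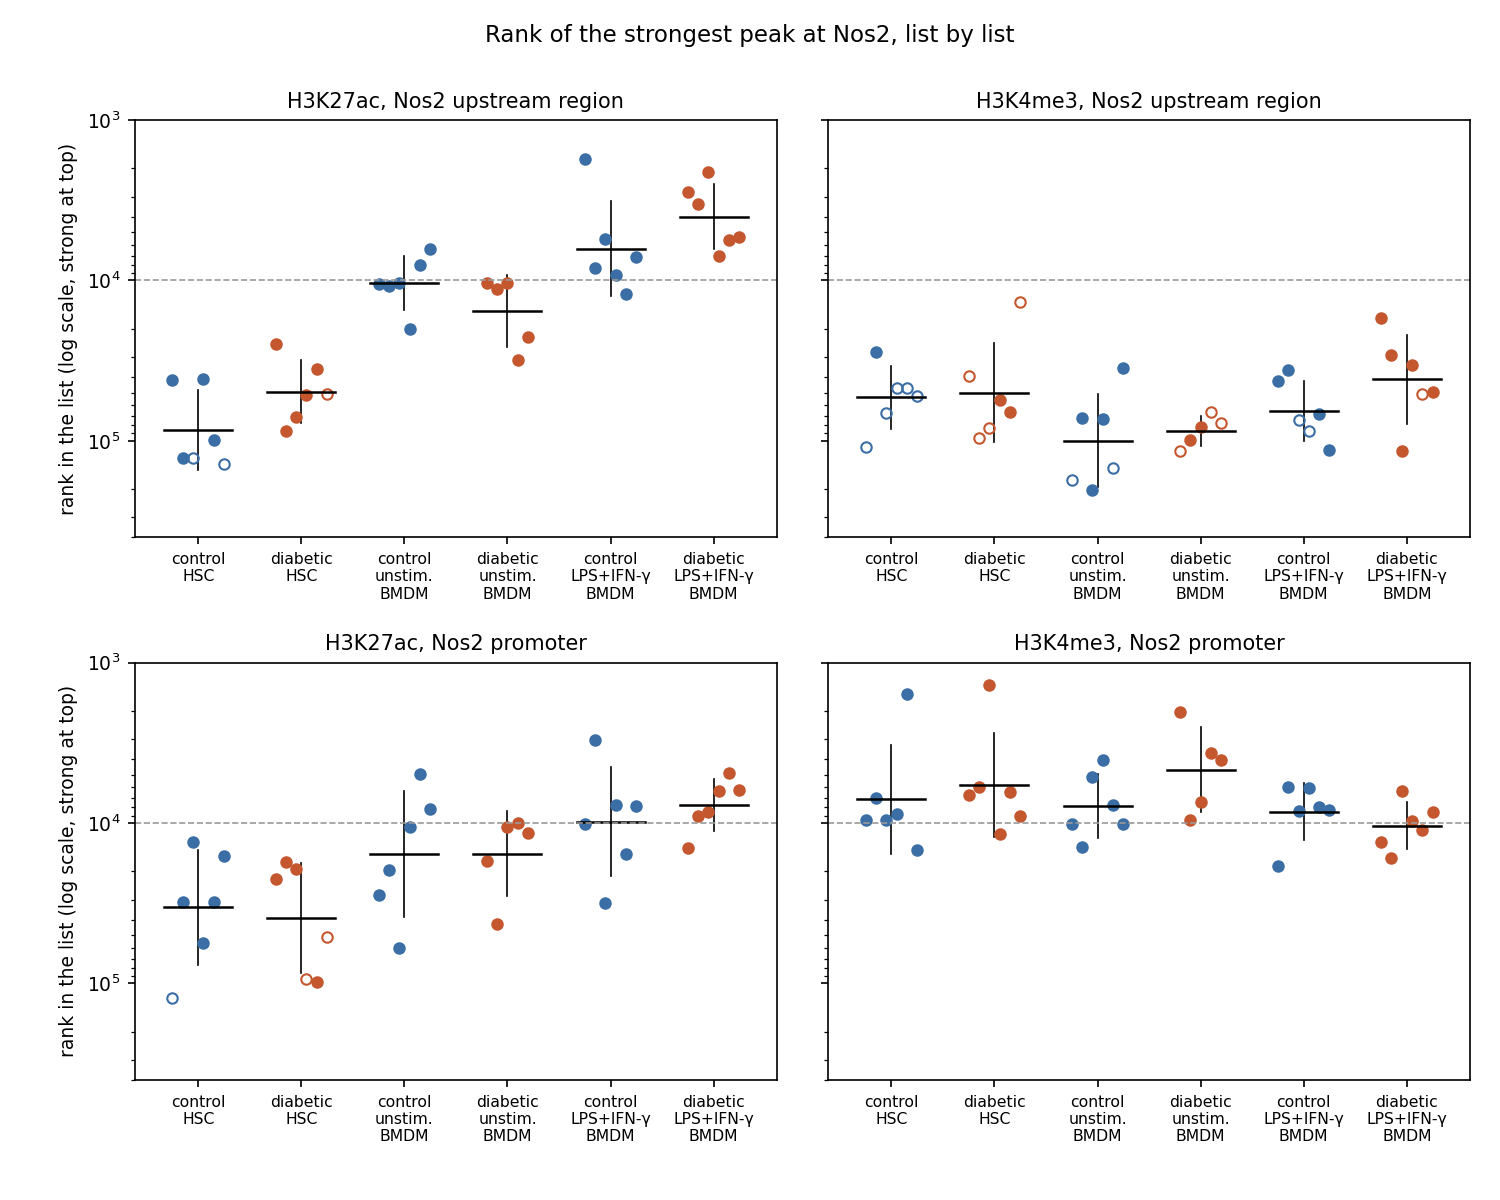
Rank of the strongest peak at the upstream region and at the promoter (1 kb either side of any of the 3 starts), list by list, on a log axis with strong peaks at the top. Filled points are lists with a peak, open points are lists without one, set at list length plus 1. Horizontal bars are geometric means, vertical bars 1 SD of log2 rank, and the dashed line is rank 10000. H3K27ac at the upstream region stood higher in each control BMDM list than in each control HSC list, and promoter H3K4me3 overlapped among all groups.

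Stimulation was read first in diabetic BMDM, the lists that brought Nos2 to attention. H3K27ac at the upstream region ranked 2811, 3351, 2097, 7015, 5635 and 5379 in stimulated lists 1 to 6, and 10408, 11391, 10385, 31536 and 22677 in unstimulated lists 1, 2, 4, 5 and 6. Every stimulated list was stronger than every unstimulated one, as the choice of the gene required, and 2.62% of all regions separated in that direction. The geometric means were 4020 and 15500, a ratio of 3.85, and the log2 difference was −1.94. The region was not empty before stimulation: each of the 5 unstimulated lists had a peak, 476 to 860 bp wide, with a fold of 3.76 to 7.14. In stimulated lists the peak was 690 to 2171 bp wide with a fold of 7.70 to 13.5.

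The same comparison in control BMDM did not use the values that chose the gene. Stimulated control lists 1 to 6 ranked the region 1762, 8373, 5552, 9211, 12208 and 7106, against the unstimulated ranks given above. The groups overlapped: 2 of 6 stimulated lists ranked above each unstimulated list, and list 5 ranked below 5 of the 6. The log2 difference was −0.70 (12.6 ± 0.98 against 13.3 ± 0.56, SD, n = 6 and 6, geometric means 6350 and 10300), and the test did not pass (exact permutation p = 0.158, adjusted p = 0.998). By the same test 0 of 16414 regions passed, and 4.11% had an unadjusted p under 0.05. Without the 3 lists of doubtful label, 5 stimulated lists at 1762 to 9211 stood above 4 unstimulated lists at 10395 to 20095, with no overlap, as 2.93% of all regions did. The difference was then −1.16, with an exact permutation p of 0.0238 and an adjusted p of 0.348. Those lists were set aside for what they held at other regions that followed stimulation, so the separation they leave is no independent evidence.

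The strongest stimulated lists of both origins were alike in rank, 1762 in control and 2097 in diabetic mice. Geometric means were 6350 in control and 4020 in diabetic stimulated BMDM, and 10300 and 15500 in unstimulated BMDM. The control and diabetic groups overlapped in each state, and these 4 values are given without a test because the diabetic lists chose the gene. H3K4me3 at the region in stimulated BMDM had a log2 rank of 15.3 ± 0.92 in diabetic and 16.0 ± 0.63 in control lists (difference −0.66, exact permutation p = 0.173, adjusted p = 0.972, n = 6 and 6). In unstimulated BMDM the difference was −0.20 (p = 0.665 by exact permutation, adjusted p = 1.00). In control BMDM, stimulated against unstimulated, it was −0.61 (exact permutation p = 0.212, adjusted p = 1.00) with all 12 lists and −0.85 without the doubted labels. None of these H3K4me3 comparisons had a region past the test among 18188, while 5.06%, 4.2% and 3.44% had an unadjusted p below 0.05.

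The promoter was scored by the strongest peak within 1 kb of any of the 3 starts. Its median equalled that of the +4.5 kb site in every group but stimulated diabetic BMDM for H3K4me3. The score thus mostly reads the later starts and says little of the first start. GENCODE support levels, where 1 is the best, were 1 for the longest transcript and 3 and 5 for the others. H3K27ac at the promoter so scored ranked 3028 to 31552 (median 9012) in stimulated and 4936 to 60166 (median 15090.5) in unstimulated control BMDM. The spread within each group was wider than the gap between them (log2 rank 13.3 ± 1.13 against 13.9 ± 1.31, difference −0.66, exact permutation p = 0.366, adjusted p = 0.921, n = 6 and 6). Of 21938 promoters, 0 passed and 2.54% had an unadjusted p under 0.05. Without the 3 doubted lists the difference was −1.44 (exact permutation p = 0.103). In diabetic BMDM the promoter ranked 4857 to 14308 in stimulated and 9990 to 42814 in unstimulated lists, which overlapped, with a log2 difference of −1.01. In HSC a promoter peak of H3K27ac was held by 5 of 6 control lists at 13183 to 55779 and 4 of 6 diabetic lists at 17564 to 98231. Control BMDM and control HSC differed by −1.11 (exact permutation p = 0.154, adjusted p = 0.467), a comparison in which 4.94% of promoters passed, and diabetic and control HSC by 0.22 (exact permutation p = 0.742, adjusted p = 0.928). In the HSC comparison 0 promoters passed and 27% had an unadjusted p below 0.05. Of those 5930 promoters, 4624 held no peak in any list of the comparison, so that only the lengths of the lists were compared there.

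Promoter H3K4me3 showed no comparison past the test. Stimulated control BMDM ranked 5961 to 18493 (median 8157) against a median of 8899 unstimulated (log2 difference 0.11, exact permutation p = 0.779, adjusted p = 0.970, with 0 promoters passing and 2.58% below 0.05 unadjusted), or 0.22 without the doubted labels. In diabetic BMDM the order ran the other way from H3K27ac: stimulated lists ranked 6317 to 16554 (median 10415) and unstimulated lists 2038 to 9622 (median 4053), so the H3K4me3 peak was on average lower in the list after stimulation (log2 difference 1.16, groups overlapping, no test). Diabetic against control lists differed by −0.76 in unstimulated BMDM (12.2 ± 0.89 against 12.9 ± 0.67, exact permutation p = 0.139, adjusted p = 0.428, n = 5 and 6), by 0.29 in stimulated BMDM (exact permutation p = 0.357, adjusted p = 0.832) and by −0.30 in HSC (exact permutation p = 0.565, adjusted p = 0.994). In these 3 comparisons 0 promoters passed, and 22.9%, 4.01% and 2.57% were below 0.05 unadjusted, the first share including 4101 promoters with no peak in any list. BMDM and HSC differed by 0.14 in control mice (exact permutation p = 0.829, adjusted p = 0.891) and by −0.32 in diabetic mice (exact permutation p = 0.591, adjusted p = 0.754). In the control comparison 33.5% of promoters passed, a share that includes promoters without peaks, which take the length of their list, and in the diabetic one 0 passed and 11.8% were below 0.05 unadjusted.

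Among the top 40000, stimulated lists held more H3K27ac peaks along the gene in diabetic BMDM, while the control groups overlapped. In diabetic BMDM the window of Nos2 and its flanks held 15, 11, 18, 14, 23 and 9 peaks of the top 40000 in stimulated lists 1 to 6, and 3, 2, 3, 2 and 2 in the unstimulated lists. The groups did not overlap (15.0 ± 5.02 against 2.40 ± 0.55, SD), and 0.83% of gene windows separated in that direction, but the contrast is the one that chose the gene and no test was made. Those peaks covered 7396 to 21761 bp in stimulated and 1221 to 1928 bp in unstimulated lists. Control lists held 20, 11, 13, 11, 3 and 12 peaks when stimulated and 3, 6, 3, 2, 14 and 8 when not. Stimulated control list 5, with 3, held no more than 5 of the 6 unstimulated lists, and unstimulated control list 5, with 14, held more than 5 of the 6 stimulated lists. Both were set apart above, and the third list set apart there, unstimulated list 6, held 8. The difference over all 12 lists was 5.67 peaks (11.7 ± 5.43 against 6.00 ± 4.52, exact permutation p = 0.0887, adjusted p = 1.00 over 21938 windows, 0 windows passing and 1.31% at an unadjusted p under 0.05). Without the 3 lists it was 9.90 peaks (13.4 ± 3.78 against 3.5 ± 1.73, n = 5 and 4), with no overlap, as in 0.734% of windows, an exact permutation p of 0.00794, the smallest possible, and an adjusted p of 0.862. The 3 lists were set aside for what they held at other regions that followed stimulation, and the count was chosen after seeing the data. The separation left without them is therefore no independent evidence. HSC lists held 1 to 3 peaks in control and 2 to 4 in diabetic mice.

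**Figure D3:**
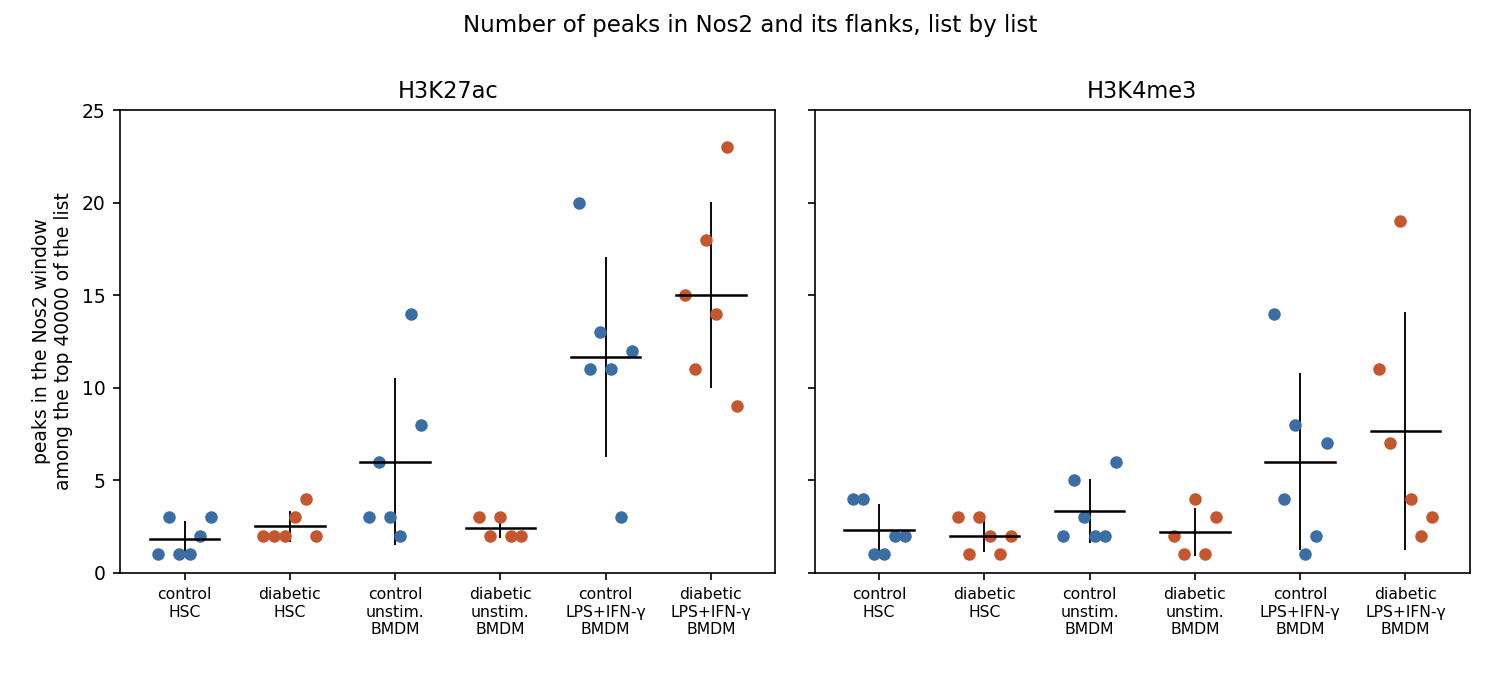
Number of peaks among the top 40000 of each list that lie in Nos2 or within 20 kb of it. Points are lists, bars are the mean and 1 SD. Stimulated H3K27ac lists held 9 to 23 peaks in diabetic and 3 to 20 in control BMDM.

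H3K4me3 peaks in the window numbered 11, 7, 19, 4, 2 and 3 in stimulated diabetic lists and 1 to 4 in unstimulated ones. In control BMDM they numbered 14, 4, 8, 1, 2 and 7 with stimulation and 2 to 6 without, a difference of 2.67 (6.00 ± 4.77 against 3.33 ± 1.75, exact permutation p = 0.275, adjusted p = 1.00, 0 windows passing and 1.17% below 0.05 unadjusted), or 3.80 without the doubted labels (exact permutation p = 0.198). Stimulated lists of both origins ranged widely, and in each origin some of them fell within the range of the unstimulated lists.

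Site by site, stimulated H3K27ac lists were compared with unstimulated ones by how many held a peak. The sites were found in the same lists, stimulated ones included, so these counts are a description. Of 21 sites, 20 were held among the top 40000 by a larger share of stimulated than unstimulated diabetic lists and 1 by an equal share, and 15 were held by no unstimulated diabetic list. In control BMDM 15 sites had a larger share in stimulated lists and 6 an equal one. The −7.7 kb site was held by 6 of 6 stimulated and 0 of 5 unstimulated diabetic lists, and by 5 of 6 and 2 of 6 control lists. The −2.6 kb site gave 6 of 6 and 0 of 5 in diabetic and 5 of 6 and 3 of 6 in control BMDM. By contrast the −3.6 kb site was held by all 23 BMDM lists whatever the state. Inside the gene, the +3.5 kb site was held by 5 of 6 stimulated and 0 of 5 unstimulated diabetic lists and by 4 of 6 and 2 of 6 control lists. The +30.4 kb site over exon 21 was held by 6 of 6 and 1 of 5 diabetic lists and 5 of 6 and 3 of 6 control lists, and the +29.2 kb site over exon 20 by 6 of 6 and 1 of 5 diabetic lists but 3 of 6 and 3 of 6 control lists. In HSC the +4.5 kb site stood out, held by 4 of 6 control and 3 of 6 diabetic lists, and no upstream site other than −3.6 kb was held by any HSC list among its top 40000.

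H3K4me3 was absent from 5 of the 6 upstream sites in the top 40000 of all 35 lists. It was present over the distal gene, where the +28.7 kb site in exon 18 was held by 4 of 6 stimulated and 4 of 6 unstimulated control lists, 5 of 6 and 2 of 5 diabetic lists and 0 of 12 HSC lists. The +8.8 kb site in intron 3 was held by 3 of 6 control and 2 of 6 diabetic stimulated lists and by no other H3K4me3 list.

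**Figure D4:**
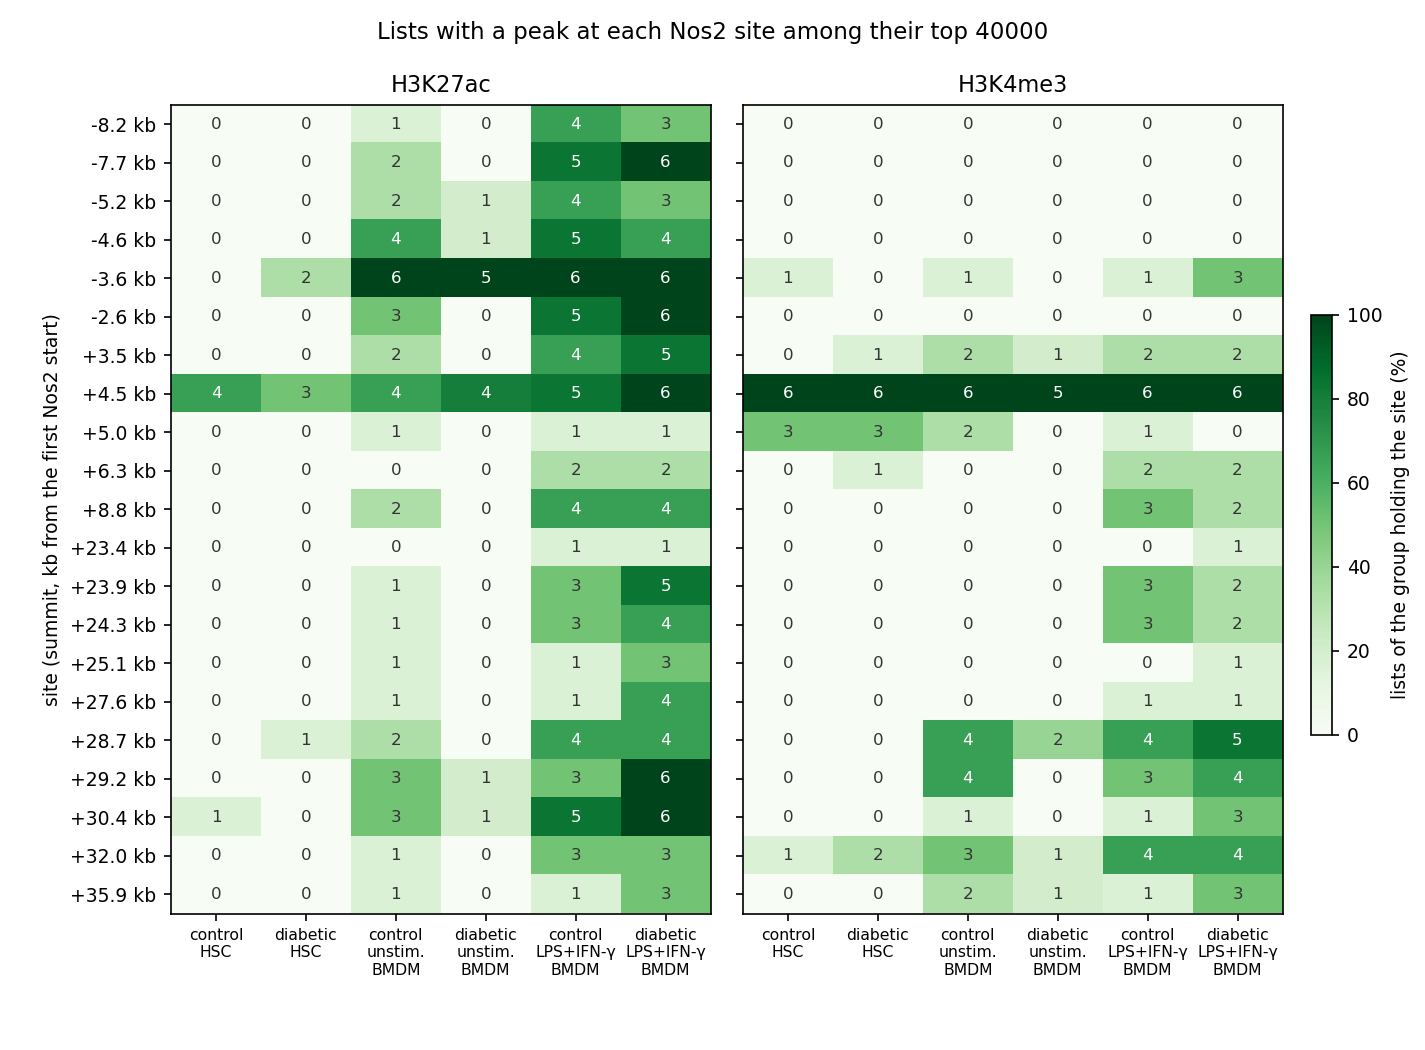
Number of lists of each group with a peak at each of the 21 sites among the top 40000, with shading for the share of lists in percent. The −3.6 kb row is full in all BMDM groups for H3K27ac, the +4.5 kb row is full in all groups for H3K4me3, and upstream rows are nearly empty in HSC.

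Promoters of 34 genes around nitric oxide were read beside Nos2, 18 of arginine and nitric oxide metabolism and 16 of the receptors and factors that lead to Nos2. With stimulation in control BMDM, 0 of 18 and 0 of 16 passed the test for H3K27ac, and none of them had an unadjusted p under 0.05 by exact permutation. Of all 21938 promoters 0 passed as well, and 2.54% had an unadjusted p under 0.05. The median log2 rank differences were 0.22 and −0.16, against 0.15 over all genes. The 4 with the largest differences were all weaker in stimulated lists: Cd14, the co-receptor that hands LPS to TLR4, by 1.35 (exact permutation p = 0.364), Ifngr2, a chain of the IFN-γ receptor, by 0.98, Spr, which completes the cofactor tetrahydrobiopterin, by 0.86, and Jak1, a kinase of that receptor, by 0.75. Each had an adjusted p of 0.921, so that none of the 4 is called a change. Without the 3 doubted lists 0 of 34 and 0 of all promoters passed, and Arg2, Cd14 and Ly96 had an unadjusted p under 0.05, as did 5.89% of all promoters. Arg2 was stronger in stimulated lists, and of Cd14 and Ly96, 1 was stronger and 1 weaker. In disease comparisons no gene of either list passed, in HSC for both marks or in BMDM for H3K4me3. Since 0 of 21938 promoters passed in any of these comparisons, this says nothing particular of the listed genes.

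Between control BMDM and control HSC, 1 of the 16 receptors and factors passed for H3K27ac. This was Irf8, an interferon regulatory factor of the myeloid lineage, with median ranks of 10467 and 19303.5 (log2 difference −1.09, exact permutation, adjusted p = 0.0438, 4.94% of promoters passing). The median difference of the 16 was −0.91 against −0.14 over all genes. An unadjusted p under 0.05 by exact permutation was found for 8 stronger in BMDM and 0 weaker, beside 20.5% of all promoters in either direction. The 8 were Irf8, Ifngr1, Ifngr2, Cebpb, Hif1a, Irf1, Rela and Cd14. Of the 18 metabolic genes 0 passed. For H3K4me3, where 33.5% of promoters passed, Qdpr, which recycles tetrahydrobiopterin, was stronger in BMDM by 3.08 (adjusted p = 0.0166, exact permutation), Ddah1, which breaks down methylated arginines, was weaker by 1.57 (adjusted p = 0.0453, exact permutation), and Nfkb1, a subunit of NF-κB, was weaker by 2.23 (adjusted p = 0.0166, exact permutation). The median H3K4me3 difference over all genes in control mice was 0.55, toward weaker in BMDM. H3K4me3 lists were also shorter in control HSC (median 49624 peaks) than in unstimulated control BMDM (median 161118). How far list length enters the values of Qdpr, Ddah1 and Nfkb1 was not tested. In diabetic mice 0 of 34 passed for H3K4me3, as did 0 of 21938 promoters. Unadjusted, 2 metabolic genes stronger and 4 weaker in BMDM were below 0.05 by exact permutation, and 0 of the receptors and factors. Of all promoters 11.8% were below 0.05.

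Across the 23 H3K27ac BMDM lists, the promoters whose log2 rank moved most like that of Nos2 included Zfp287 (Spearman rho 0.847), Tmem19 (0.841), Clcn6 (0.826) and Rbpms (0.821), against a median rho of 0.222 over all genes. Clcn6 is a chloride transporter. The regions most like the upstream region lay nearest to Cyth4 (0.897), Rxra (0.896), Nudt3 (0.886), Gbp7 (0.880) and Tpsab1 (0.879), against a median of −0.04. Gbp7 is one of the guanylate-binding proteins that interferons induce, and its region at chr3:142530008-142531147 over its start had a median rank of 2183 in stimulated and 9409 in unstimulated diabetic lists and 4690 and 7317 in control lists. Rxra, a partner of nuclear receptors, had its region 2071 bp from a start, with medians of 6999 and 12644 in diabetic and 9378 and 11866 in control BMDM. These are descriptions over lists that share cells, stimulation and list length, and carry no test. The 23 lists include the diabetic ones whose ranks chose Nos2, so regions that followed stimulation there were favoured as likest to the upstream region.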

How the data were processed

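H3K27ac and H3K4me3 peak lists from 70 ChIP-seq libraries were used, and the 36 input samples, which have no list of their own here, were not. Libraries were sequenced as single reads of 50 bp. The submitters' processing notes name Trim Galore 0.3.3, cutadapt 1.8, FastQC 0.11.3, Bowtie2 2.2.6, Picard 2.18.14 and 2.19.2, bedtools 2.19.1 and MACS2 2.2.7.1, with GRCm38 (mm10). The deposited lists were called per library and give a score, a ratio (fold enrichment at the summit), and −log10 p and −log10 q; the authors' lists stop near a q of 0.05. Summits of 1 numbered interval were joined, and peaks were ranked by −log10 p within each list, since signal is not scaled between libraries.

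A promoter was the 1000 bp before and after any start of a gene in GENCODE M21. Consensus regions merged the top 10000 peaks of the 35 lists of a mark and were kept when found in at least 2 lists; the Nos2 upstream interval was added to the H3K4me3 regions, where none lay. Sites joined summits from the top 20000 peaks lying within 250 bp of each other in at least 3 lists. Log2 ranks were compared by exact two-sided permutation over 924 (6 against 6) or 462 (5 against 6) arrangements, with Benjamini-Hochberg adjustment over all 21938 promoters or windows, 16414 H3K27ac regions or 18188 H3K4me3 regions, and calls were made below an adjusted p of 0.05. The smallest p is 0.00216. The code was checked on simulated ranks. The study's n is animals, but the labels do not tie a list to an animal, so p values measure the spread between lists.

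Nos2, the 34 pathway genes, the markers and the comparisons were chosen with earlier results of these data known. Named pathway genes are those past the test and the 4 with the largest difference on stimulation in control BMDM, and those named for an unadjusted p were chosen after their values were seen; the genes and regions most like Nos2 are the 5 with the highest rho, of which 1 gene is not reported here. Alternatives were rank by fold, share of the list, a q of 0.01 or less, an overlap of at least 200 bp, a replicate block, each list left out and the doubted control lists left out. The count of peaks in the window among the top 40000, with its alternatives, and the interval from 5 kb to 1 kb before each gene were chosen after seeing the data. Python 3.11.15, numpy 2.4.6, pandas 2.3.3 and bedtools 2.31.1 were used.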

Additional observations from a re-analysis of the deposited data

Results flagged for a closer look

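Within groups of 5 or 6 lists, 3 of 36 sets of values had a list far from the rest of its group, and chance alone singles out about 1 in 20 groups. All 3 concerned log2 rank of H3K4me3 at the Nos2 promoter. Diabetic HSC list 3 stood at 10.43, where the next list was at 12.55 and the weakest at 13.51, so its promoter peak was unusually high in the list. Control HSC list 5 stood at 10.61, with the next list at 12.77 and the weakest at 13.85. Stimulated control BMDM list 1 stood at 14.17, where the other lists lay between 12.54 and 13.04, so its promoter peak was unusually low, while the same list held 14 H3K4me3 peaks in the window.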

How the results depend on the processing

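The difference between control BMDM and HSC in H3K27ac at the upstream region kept its direction in each alternative and its call in all but 2: over the interval before each gene it was −2.73 (adjusted p = 0.109, exact permutation), and with replicate numbers as a block −3.05 (adjusted p = 0.111, exact permutation of signs, whose smallest p with 6 pairs is 0.0312). Each alternative read the upstream region or an interval that contains it, and the region had entered the set only through BMDM. Keeping the call is therefore no independent check of the difference. Same-numbered unstimulated BMDM and HSC lists had deviations correlated at −0.244 to 0.194, with 1 of 22 pairs over 0.1. Stimulated and unstimulated BMDM pairs gave −0.207 to 0.383, with 20 of 22 positive, 11 of 22 over 0.1 and 10 of 22 lists best matched by their own number. This is a hint of pairing that does not reach every pair. The numbers were used as names, so the main stimulation tests are unpaired and the block is an alternative. No other comparison passed, in the main setting or in any alternative run. Signs turned in some comparisons. Ranked by fold, the disease difference of promoter H3K27ac in HSC was −0.34 and the cell type difference of promoter H3K4me3 in control mice −0.10. As a share of the list, the latter was −1.30, the cell type difference of H3K4me3 at the upstream region in control mice −0.54, and the disease difference of the same in unstimulated BMDM 0.47, or 0.00093 with the block.

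With each list left out in turn, the upstream region gave −3.26 to −2.90 (H3K27ac, control BMDM against HSC), −0.89 to −0.33 (H3K27ac, stimulation in control BMDM), −0.28 to 0.28 (H3K4me3, disease in HSC) and −0.50 to 0.00093 (H3K4me3, disease in unstimulated BMDM). The promoter gave −0.044 to 0.60 (H3K27ac, disease in HSC), −0.74 to 0.12 (H3K4me3, disease in HSC), −0.995 to −0.27 (H3K27ac, stimulation in control BMDM), 0.16 to 0.52 (H3K4me3, disease in stimulated BMDM), −0.73 to −0.022 (H3K4me3, diabetic BMDM against HSC), −0.11 to 0.28 (H3K4me3, stimulation in control BMDM) and −0.30 to 0.35 (H3K4me3, control BMDM against HSC). The count of window peaks in control BMDM differed by 4.0 to 7.4 for H3K27ac and 1.07 to 3.67 for H3K4me3. The cause of these shifts was not tested. Depth is unknown, ranks say nothing of absolute signal, and a list without a peak takes its own length, which differs between groups for H3K4me3.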

Other observations

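Peaks of any rank in the window numbered 20 to 47 in stimulated diabetic H3K27ac lists and 4 to 21 in unstimulated diabetic ones. They numbered 8 to 46 and 5 to 24 in control BMDM and 2 to 16 in HSC of both origins. H3K4me3 gave 9 to 41 peaks in stimulated and 8 to 37 in unstimulated control BMDM, and 3 to 35 and 3 to 18 in diabetic BMDM. The H3K27ac groups of diabetic BMDM, which did not overlap among the top 40000, thus overlapped when no limit was set on rank.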
